A study of Danio rerio with 2 samples.

Results

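The peaks described here are the accessible sites close to the ends of zebrafish chromosomes, in whole wild-type embryos of the AB/PS strain of Danio rerio, collected 2.5 hours after fertilization. At this age the embryo has 256 cells. A peak was taken as an end peak when its summit lay at most 5 Mb from the start of its chromosome, or at most 5 Mb from the furthest peak end on that chromosome in either peak table. This rule gave 76 of 380 peaks (20%) in replicate 1 and 255 of 1096 peaks (23.3%) in replicate 2, and the other 304 and 841 peaks are called interior peaks. The samples form 1 group with 2 biological replicates, each made from 75000 cells of dechorionated embryos without yolk, so the data hold no contrast between conditions. Cells of all kinds in the embryo were mixed in each library.

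ATAC-seq reads accessibility from the cuts that the transposase Tn5 makes in DNA not wrapped tightly in nucleosomes. Before the zygotic genome is broadly transcribed, the early zebrafish embryo runs on maternal RNA and protein, and maternal factors such as Pou5f3, Sox19b and Nanog are known to open chromatin for the later start of transcription. Chromosome ends carry telomere repeats, and the DNA next to them is often rich in repeats and duplicated segments, where short reads are hard to place. The long arm of zebrafish chromosome 4 is known as repeat-rich heterochromatin.

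All end peaks among the best 20 of each list overlapped a peak of the other replicate, as did all interior peaks there. The peaks described first are the best ranked of those that overlapped, so close summits are in part set by that choice. On chromosome 17, 131 kb before the last peak end, a peak at 53841343 to 53841644 had a pileup of 83 tags in replicate 1 and 110 tags in replicate 2. Pileup counts the extended tags that cover a summit, and the replicates differ in depth by a factor of 1.09. Its fold enrichment, which sets the pileup against tags nearby in that library, was 25.97 and 24.92, and its summits were 6 bp apart. It ranked 3 of 380 and 1 of 1096 by −log10 q, the score that the peak caller gives each peak.

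Chromosome 2 held a pair of strong end peaks. The peak at 56692506 to 56692726 reached 56 and 60 tags, with fold enrichments of 24.7 and 24.3. The peak at 57209228 to 57209415, 5.57 kb before the last peak end, reached 37 and 55 tags, with fold enrichments of 21.9 and 25.1. Tag density in the 10 kb around both, the peak's own tags included, was 1.34 to 2.53 times the mean of the sample. At both peaks it was below the end-peak median of 3.17 in replicate 1 and above that of 1.89 in replicate 2.

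Near the chromosome starts, the peak on chromosome 4 at 2134976 to 2135240, on the arm that is not heterochromatic, ranked 5 in replicate 1 and 8 in replicate 2, with pileups of 63 and 59 tags. On chromosome 20, with ranks of 13 and 4, the peak at 4645320 to 4645653 had 45 and 68 tags, and its fold enrichment was 19.9 in replicate 1 and 25.6 in replicate 2. Neighbouring peaks on chromosome 16, at 3797264 to 3797464 and at 3798699 to 3798936, had 64 and 76 tags in replicate 1 and 68 and 69 tags in replicate 2. Their order of height was the same in both replicates, with a gap of 12 tags in the first and 1 tag in the second. On chromosome 11, at 3006113 to 3006467, pileups were 55 and 56 tags.

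Long peaks were among the best ranked as well. The peak on chromosome 22 at 42253739 to 42254908 ran to the last peak end of its chromosome and was 1170 bp long in replicate 1 and 1037 bp in replicate 2, with pileups of 47 and 70 tags. On chromosome 21, the peak at 41207700 to 41208162 was 463 and 455 bp long and had 60 and 70 tags. On chromosome 7, pileups were 77 and 84 tags at 73909789 to 73910110. The peak on that chromosome at 71002511 to 71002695 had 32 tags in each replicate. Over these 12 peaks, the summits of the replicates were 3 to 76 bp apart, and no rank was worse than 58.

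End peaks made up 9 of the best 20 peaks by −log10 q in replicate 1 and 10 of the best 20 in replicate 2, a count made after the ranks were seen. In the best 25% of each list they made up 21 of 95 (22.1%) and 62 of 274 (22.6%), close to their shares of the whole lists, 20% and 23.3%. The excess among the first 20 was thus not present in this larger set, and it includes neighbours such as the chromosome 16 pair.

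Of the 76 end peaks in replicate 1, 64 (84.2%, Wilson 95% interval 74.4 to 90.7) overlapped a replicate 2 peak by at least 1 bp, against 86.8% of all replicate 1 peaks. Of the 255 end peaks in replicate 2, 62 (24.3%, interval 19.5 to 29.9) overlapped a replicate 1 peak, against 29.4% of all replicate 2 peaks. The 64 pairs reach only 62 peaks of replicate 2 because a pair of replicate 1 peaks fell into a single replicate 2 peak on chromosome 21 at 40674233 to 40674549 and again on chromosome 4 at 61304172 to 61305214. Intervals for shares cover counting error only and treat peaks as independent, although neighbours are not.

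The shared end peaks were paired by overlap, with median lengths of 204 bp in replicate 1 and 245.5 bp in replicate 2. Short distances between their summits are thus in part set by that choice. The median distance between paired summits was 12.5 bp, with quartiles of 4 and 34 bp, and 27 of the 64 pairs had summits within 10 bp. For the 266 interior pairs the median was 20.5 bp (quartiles 7 and 58.5), and 95 had summits within 10 bp. Pileup was higher in replicate 2 in 53 of the 64 end pairs, equal in 3 and lower in 8. Among the 266 interior pairs it was higher in 185, equal in 11 and lower in 70. Divided by the replicate 1 value, the replicate 2 pileup of end pairs had a median of 1.195 (quartiles 1.07 and 1.47) and extremes of 0.846 and 2.33. Of the 64 ratios, 45 were above the depth ratio of 1.09 and 19 below it. For interior pairs the median ratio was 1.18, and 164 of 266 were above the depth ratio. With 1 library per replicate these ratios compare libraries, and no test was made. Fold enrichment was nearer to equal between replicates than pileup, with a median ratio of 1.02 in end pairs and 0.969 in interior pairs.

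**Figure D1:**
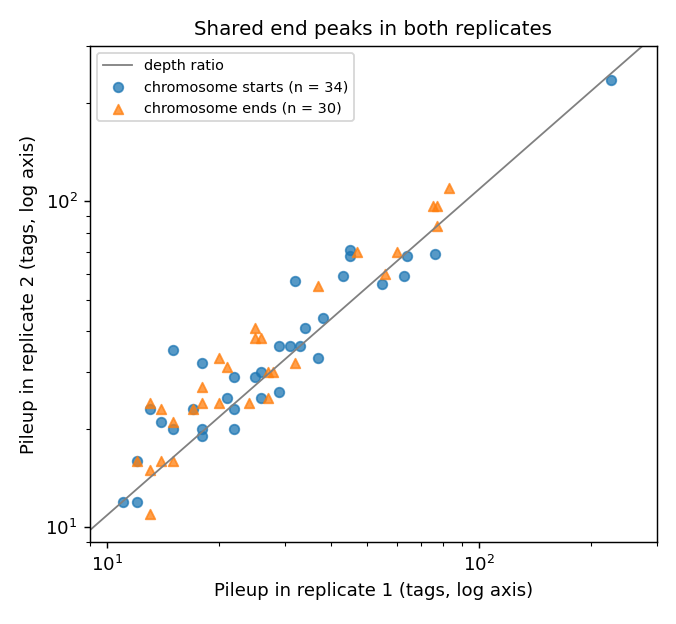
Pileup at the summit in replicate 1 (horizontal, tags, log axis) and replicate 2 (vertical, tags, log axis) for the 64 shared end peaks, 34 near chromosome starts (circles) and 30 near the far ends (triangles); the line is the depth ratio of 1.09. Points follow the line over the whole range, and 45 of the 64 lie above it.

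Outside the 12 best ranked pairs, the remaining 52 pairs lay on 22 chromosomes. Their median pileups were 21.5 tags in replicate 1 (range 11 to 227) and 25.5 in replicate 2 (range 11 to 235). Median fold enrichments were 7.61 and 7.63, and summits were a median of 15.5 bp apart. The widest summit gap, 1087 bp, belonged to the long peak at the first bases of chromosome 1, which covered 1808 bp in replicate 1 and 1885 bp in replicate 2.

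The 12 unshared end peaks of replicate 1 were low, with a median pileup of 15.5 tags, and some lay just beside a replicate 2 peak. The best ranked, on chromosome 22 at 42168860 to 42169085, had 18 tags and missed its nearest replicate 2 peak by 96 bp. On chromosome 11, at 3003792 to 3003938, a peak with 30 tags missed by 84 bp. By contrast, the peaks on chromosome 23 at 45851276 to 45851437 (14 tags) and chromosome 3 at 59981832 to 59981987 (18 tags) lay 236233 and 470067 bp from one.

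Replicate 2 had 193 unshared end peaks, and most were weak. Their median pileup was 13 tags (range 8 to 53) against 30 tags for its 62 shared end peaks, and their median length was 162 bp against 243 bp. Replicate 1 had no peak within 1 Mb for 114 of the 193 (59.1%), and for 310 of 581 unshared interior peaks (53.4%). The best ranked unshared end peak, on chromosome 5 at 3360183 to 3360392, had 45 tags and lay 4988 bp from a replicate 1 peak. Those on chromosome 11 at 1463815 to 1464002 (23 tags), chromosome 16 at 57341568 to 57341798 (22 tags) and chromosome 8 at 51431631 to 51431863 (22 tags) had fold enrichments of 11.83, 12.03 and 11.5. Each of these 3 was over 1 Mb from any replicate 1 peak.

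The first comparison with the interior asks whether the sites were more crowded near the ends. The end windows cover 250 Mb, 18.8% of the length spanned. In replicate 1 they held 0.304 peaks per Mb and the interior 0.281, a ratio of 1.08 (exact conditional 95% interval 0.830 to 1.40). In replicate 2 they held 1.02 peaks per Mb and the interior 0.777, a ratio of 1.31 (interval 1.14 to 1.51). The mean ratio was 1.197 ± 0.163 (SD, n = 2). The intervals count each peak as independent. With the chromosome as the unit, end windows were the denser ones on 15 of 25 chromosomes in replicate 1 and on 16 of 25 in replicate 2, and neither count passed the exact two-sided sign test (adjusted p = 0.485 and 0.306). Adjusted p-values of the sign tests are Benjamini-Hochberg values over 4 measures in 2 tables. Where peaks within 100 kb were merged, they cover only peaks per Mb and the share overlapping the other table.

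The choice of chromosome end bears on this ratio. Because the furthest peak end stands for the end of the chromosome, each far window holds a peak of at least 1 table by construction. The furthest end was set by replicate 2 on 20 chromosomes and by replicate 1 on 5. Replicate 2 had peaks in all 25 far windows, while replicate 1 had peaks in 15. Within 1 kb of the furthest end lay 7 peaks in replicate 1 and 23 in replicate 2. Without them the ratio was 0.982 in replicate 1, on the other side of 1, and 1.19 in replicate 2. Windows at chromosome starts, which no peak sets, had ratios of 1.08 and 1.15.

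Counting clusters as single regions gave results in replicate 2 that depended on the width of merging. When peaks within 1 kb were merged, its ratio was 1.41, on 19 of 25 chromosomes (exact sign test, adjusted p = 0.117). The same merging gave 1.16 in replicate 1, on 14 of 25 chromosomes (exact sign test, adjusted p = 0.690). When peaks within 100 kb were merged, end windows were denser on 24 of 25 chromosomes in replicate 2, with a ratio of 1.69 (exact sign test, adjusted p = 6.2e-06). Merging lowered its interior density from 0.777 to 0.455 per Mb, and its end density from 1.02 to 0.768. The merged ratio thus joins the clustering of peaks with their number. With merging within 100 kb, and without the last peaks, the ratio was 1.49 and 22 of 25 chromosomes were denser at the ends (exact sign test, adjusted p = 0.000626). For merged regions at chromosome starts alone it was 1.48, on 18 of 25 chromosomes (exact sign test, adjusted p = 0.0866). In replicate 1 the ratio with peaks within 100 kb merged was 1.46, on 16 of 25 chromosomes (exact sign test, adjusted p = 0.306). The alternatives that combine merging with another choice were added after the data were seen.

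**Figure D2:**
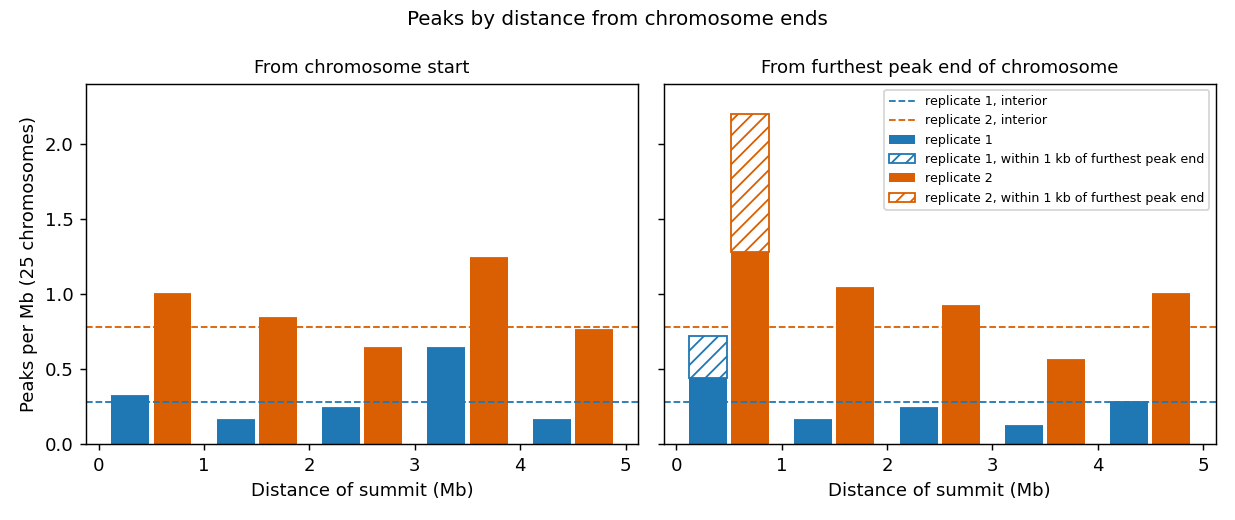
Peaks per Mb in bins of 1 Mb (vertical) by distance of the summit from the chromosome start (left) and from the furthest peak end of the chromosome (right), summed over 25 chromosomes; hatched parts are peaks within 1 kb of that furthest end and dashed lines are the interior densities. The hatched peaks, 7 in replicate 1 and 23 in replicate 2, make up a large part of the tallest bars.

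Peaks were not spread evenly within the end windows. In the first 1 Mb at the starts, replicate 1 had 8 peaks and replicate 2 had 25, that is 0.320 and 1 per Mb. The fullest bin at the starts was the one from 3 to 4 Mb, with 16 peaks in replicate 1 and 31 in replicate 2. Of these, 15 in each replicate were shared, and the bin holds clusters on chromosomes 5, 11, 12, 14, 16 and 20. The cluster on chromosome 5 had 1 peak in replicate 1 and 5 in replicate 2. At the far ends, the last 1 Mb held 18 and 55 peaks, and 11 and 32 without those within 1 kb of the end. In replicate 2 these 32 peaks made 1.28 per Mb, and the 4 bins further in held 1.04, 0.92, 0.56 and 1 per Mb.

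The limit of 5 Mb ran through a cluster on chromosome 7. Just inside it, the peak on chromosome 7 at 71002511 to 71002695 lay 4991956 bp from the last peak end and had 32 tags and a fold enrichment of 13.1 in replicate 1. Just outside, at 5000639 bp, a peak of the same chromosome at 70993783 to 70993934 had 24 tags and a fold enrichment of 6.25. In replicate 2 these neighbours had 32 and 36 tags, with fold enrichments of 13.3 and 8.68, and the next peak outside, at 70990143 to 70990318, had 26. The next peaks inside and outside in replicate 1 were on chromosomes 23 and 17, with 26 and 16 tags, and the next inside in replicate 2 was on chromosome 16, with 14 tags.

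The end windows of single chromosomes differed widely. Replicate 1 had end peaks on 23 of 25 chromosomes, with 0 to 8 each (median 2), and replicate 2 on all 25, with 4 to 20 each (median 10). Chromosome 7 had the most in replicate 1, with 1 at its start and 7 at its far end. Chromosome 5 had the most in replicate 2, with 15 at its start and 5 at its far end, while replicate 1 had 3 there, all at the start and all shared. On chromosome 21, replicate 1 had 6 of its 10 peaks in the far window, and all 6 overlapped a replicate 2 peak. On chromosome 22, neither replicate had a peak in the first 5 Mb, while the far window held 4 and 8.

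Some chromosomes had end peaks in replicate 2 alone. On chromosome 9, replicate 1 had 4 peaks, none of them at an end, and replicate 2 had 13 end peaks, 12 of them in the far window, with pileups of 9 to 16 tags. A count of 0 of 4 says little about chromosome 9 in replicate 1. On chromosome 8, replicate 1 had 30 peaks and none within 5 Mb of an end, and replicate 2 had 4 of 65 there. In replicate 2 that is 0.4 peaks per Mb at the ends of chromosome 8 against 1.34 in its interior. On chromosome 10, which had end peaks in both replicates, they were 1 of 21 peaks in replicate 1 and 6 of 39 in replicate 2.

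**Figure D3:**
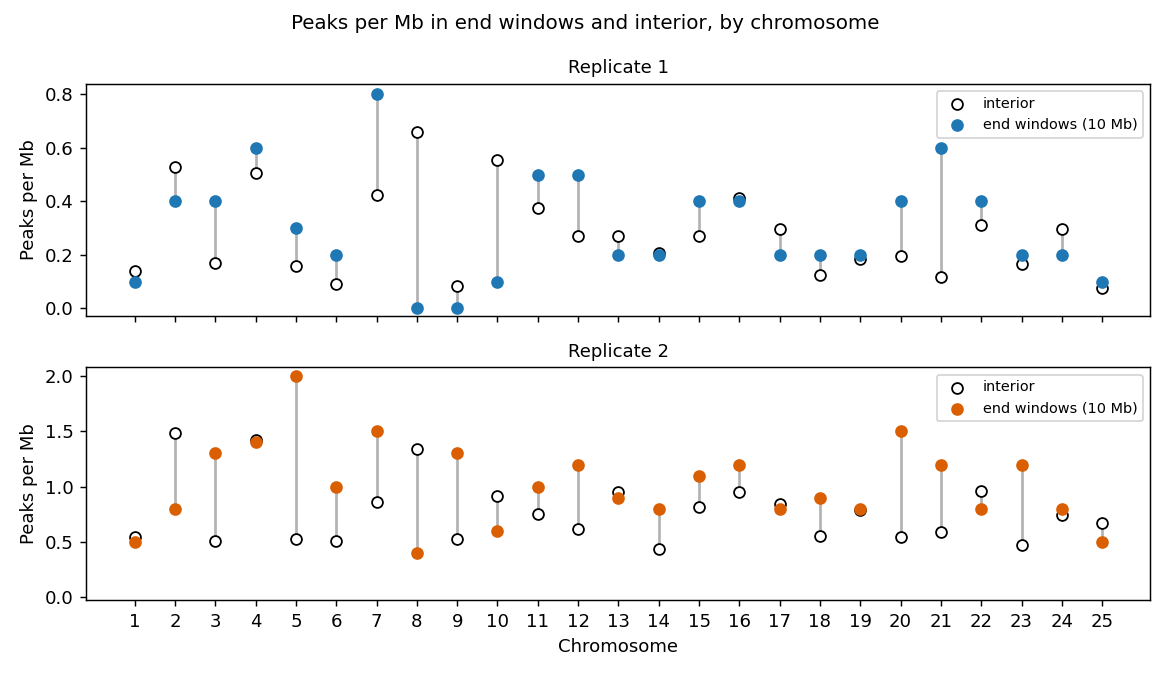
Peaks per Mb (vertical) in the end windows (filled points) and in the interior (open points) of each of 25 chromosomes (horizontal), for replicate 1 above and replicate 2 below; grey lines join the values of a chromosome. End windows lie above the interior on 15 chromosomes in replicate 1 and on 16 in replicate 2, with chromosome 5 highest in replicate 2 and chromosome 8 low in both.

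The second comparison concerns the tag density around the sites. The number of tags in the 10 kb around a summit, recovered from pileup and fold enrichment and given as a multiple of the sample mean, had a median of 3.17 around end peaks and 7.77 around interior peaks in replicate 1. In replicate 2 these medians were 1.89 and 3.07. Surroundings of end peaks were the sparser ones on 18 of 23 chromosomes in replicate 1 and on 21 of 25 in replicate 2 (exact two-sided sign test, adjusted p = 0.0390 and 0.00728). This measure was added after the data were seen. It includes the peak's own tags, because no control was used, so it is not separate from pileup. At the chromosome 2 peak at 57209228 to 57209415, the pileup in replicate 1 was 37 tags and the 10 kb held 50. Surroundings of at least 4 times the mean were found for 32 of 76 end peaks (42.1%) in replicate 1, where all peaks gave 64.2%, and for 56 of 255 (22.0%) in replicate 2, where all peaks gave 38.4%. The 10 kb window of a peak next to a chromosome end can run past the sequence, which lowers its count. The recovered value does not fall below the sample mean, where 3 of 380 peaks in replicate 1 and 59 of 1096 in replicate 2 stand.

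**Figure D4:**
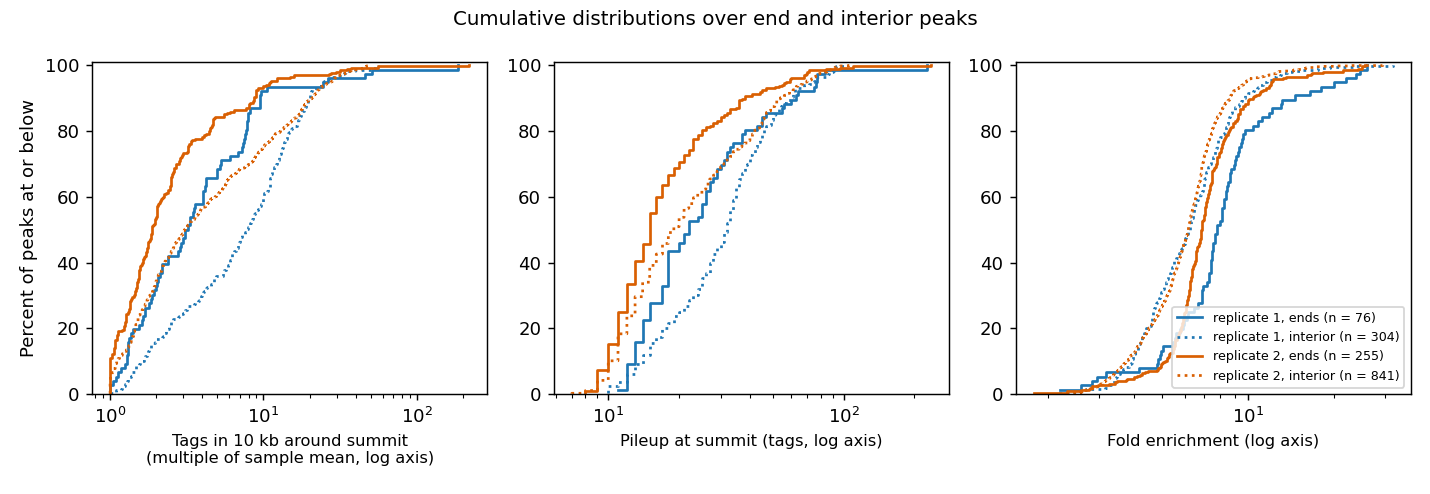
Percent of peaks at or below a value (vertical) for tags in the 10 kb around the summit as a multiple of the sample mean, pileup in tags and fold enrichment (horizontal, log axes), for end peaks (solid) and interior peaks (dotted) of each replicate. At medians and quartiles, curves of end peaks lie to the left for tag density (medians 3.17 against 7.77 and 1.89 against 3.07) and pileup. There they lie to the right for fold enrichment. The highest pileups, 227 and 235 tags, were of end peaks, and the highest fold enrichments, 31.97 and 29.56, of interior peaks.

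Pileup followed the same direction. Its median was 22 tags (quartiles 15 and 33.25) at end peaks and 32 tags (quartiles 20.75 and 42.25) at interior peaks in replicate 1. In replicate 2 the medians were 15 tags (quartiles 11.5 and 23) and 19 tags (quartiles 13 and 36). End peaks had the lower median on 16 of 23 chromosomes in replicate 1 and on 18 of 24 in replicate 2, and the exact sign test did not pass after adjustment (adjusted p = 0.149 and 0.0906). Far ends taken alone passed, with medians of 19 and 14 tags, lower than the interior on 13 of 14 and 22 of 25 chromosomes (exact sign test, adjusted p = 0.00732 and 0.00125). The furthest peak ends set these windows, so each holds a peak of at least 1 table by construction. Peaks within 1 kb of them numbered 7 in replicate 1 (median 25 tags) and 23 in replicate 2 (median 14 tags). Far ends alone without these peaks were not tested. Starts alone had medians of 25.5 and 16.5 tags and did not pass (exact sign test, adjusted p = 0.719 in each). The difference between starts and far ends was not tested. Tag density, which was itself recovered from pileup and fold enrichment, moved with pileup, and its part in the result was not tested. Among peaks under 4 times the mean density, median pileup was 17 tags at ends and 15 in the interior in replicate 1, and 13 in both in replicate 2.

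Fold enrichment went the other way. Its median was 7.78 at end peaks and 6.23 at interior peaks in replicate 1, where 16 of 23 chromosomes had the higher value at the ends (exact sign test, adjusted p = 0.149). In replicate 2 the medians were 6.88 and 6.18, with the higher value at the ends on 21 of 25 chromosomes (exact sign test, adjusted p = 0.00728). Fold enrichment is divided by the local density, or by the sample mean where that is higher, so it is tied to the density result above.

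Peaks in sparse surroundings, under 4 times the mean, were also counted per Mb. This count joins the density of tags with the number of peaks and is no separate result on peak number, since 78.0% of end peaks and 56.6% of interior peaks were under the limit in replicate 2, and 57.9% and 30.3% in replicate 1. In replicate 2 there were 0.796 such peaks per Mb in end windows and 0.440 in the interior, and in replicate 1 there were 0.176 and 0.0850. These splits by density were also chosen after the data were seen.

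Peak length gave no common direction. Median length was 191.5 bp at end peaks and 187 bp at interior peaks in replicate 1, and 169 bp and 174 bp in replicate 2. End peaks were longer on 16 of 22 chromosomes in replicate 1 and shorter on 17 of 23 in replicate 2, and neither passed the exact sign test (adjusted p = 0.105 and 0.0925). The lengths ran from the size to which tags were extended to 1808 and 1885 bp, the peak at the first bases of chromosome 1.

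The share of peaks found in the other replicate did not pass the test either. It was 84.2% at ends and 87.5% in the interior in replicate 1, with 11 chromosomes higher and 9 lower at the ends, and 24.3% and 30.9% in replicate 2, with 6 higher and 19 lower (exact sign test, adjusted p = 0.824 and 0.0906). Replicate 2 was also divided by −log10 q into 4 equal parts. Of its top part, 45 of 62 end peaks (72.6%) and 147 of 212 interior peaks (69.3%) were shared. In the next part 12 of 58 (20.7%) and 69 of 216 (31.9%) were shared, and in the one after it 3 of 64 (4.69%) and 30 of 210 (14.3%). The last part had 2 of 71 (2.82%) and 14 of 203 (6.90%). Under 4 times the mean density the shares in replicate 2 were 15.1% and 14.9%. In replicate 2, 34 of 112 end peaks near starts (30.4%) and 28 of 143 at far ends (19.6%) were shared. In replicate 1 these numbers were 34 of 38 and 30 of 38.

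The share of end peaks with a close neighbour was below that of all peaks. In replicate 1, 32 of 76 (42.1%) had another peak starting within 10 kb, where all peaks gave 55.3%, and in replicate 2 it was 65 of 255 (25.5%), where all peaks gave 40.5%. These shares were not tested. When end peaks of both tables within 100 kb were joined, they formed 197 regions, of which 49 held peaks of both replicates, 144 of replicate 2 alone and 4 of replicate 1 alone. Replicate 2 has more unshared peaks in the interior as well. With each table merged within 100 kb, 23.4% of its end regions and 28.3% of its interior regions overlapped one of replicate 1, and from replicate 1 the shares were 86.8% and 88.5%. A single peak made up 133 of the 197 regions.

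Only 8 joined regions had 4 or more peaks in a replicate. The one with most was on chromosome 7 at 73909784 to 73963248, with 3 peaks in replicate 1 and 5 in replicate 2, and it contains the strong peak described above. On chromosome 11, 4 and 3 peaks lay within 2732 bp, from 3003792 to 3006523. The region on chromosome 12 at 3790997 to 3817458 had 3 and 4 peaks, among them a peak at 3791006 to 3791178 with fold enrichments of 13.0 and 16.1 in surroundings near the mean density (1.26 and 1.03 times). From 1649797 to 1651588 on chromosome 3 there were 2 peaks in replicate 1 and 4 in replicate 2. The region of chromosome 5 between 3345289 and 3360392 had 1 peak against 5, and that of chromosome 15 between 45128661 and 45150028 had 1 against 4.

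The remaining regions of the 8, on chromosomes 5 and 9, had no peak in replicate 1. On chromosome 5 at 1182340 to 1202591, replicate 2 had 4 peaks with pileups of 36, 51, 45 and 47 tags. Their fold enrichments were low, from 2.61 to 5.11, and the median tag density around them was 27.3 times the mean. On chromosome 9 at 56113106 to 56265695, its 4 peaks had 10 to 15 tags and a median density of 2.43 times the mean. That is above the median of 1.89 for all end peaks of replicate 2. High pileup in dense surroundings and low pileup in surroundings under 4 times the mean thus both occurred among sites called in 1 replicate.

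A few end peaks lay in far denser surroundings than most end peaks. At the start of chromosome 18, the peak at 41698 to 42054 had 45 tags in replicate 1 and 71 in replicate 2, with 24.5 and 35.1 times the mean density around it. Its neighbour at 51676 to 51840 had 43 and 59 tags at 26.4 and 31.8 times the mean. At the far end of chromosome 4, on the heterochromatic arm, the peaks at 61304345 to 61304653 and 61304770 to 61305221 had 75 and 77 tags in replicate 1, at 51.2 and 46.2 times the mean. A single peak of 97 tags covered them in replicate 2, at 55.8 times the mean. Fold enrichments were 2.61 to 3.27 at these places in both replicates. Such surroundings were not particular to ends. In replicate 1, interior peaks on chromosome 16 with summits at 16637284 and 16640084 had 68 and 76 tags. They stood at 55.9 and 51.7 times the mean, with fold enrichments of 2.17 and 2.62. The peak at the first bases of chromosome 1 had the highest pileups of all peaks in both lists, 227 and 235 tags. It lay at 187 and 220 times the mean density, and its fold enrichments were only 2.19 and 1.78. At the far end of chromosome 20, replicate 2 alone had a peak at 55776743 to 55776889, with 53 tags at 37.2 times the mean.

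The end peaks nearest to a chromosome end fell mainly at far ends, where the last peak of either table sets the end. In replicate 1 the nearest were on chromosomes 23, 12, 4, 1 and 2, with summits 100 to 179 bp from the end and pileups of 14, 12, 77, 227 and 12 tags. In replicate 2 they were on chromosomes 19, 3, 1, 11 and 24, 42 to 71 bp from the end, with 12 to 15 tags, and none of these 5 was shared. At chromosome starts, where no peak sets the limit, shared peaks on chromosome 24 at 27861 to 28007 (13 and 23 tags) and chromosome 15 at 37026 to 37267 (18 and 20 tags) were among the nearest. Fold enrichments were 8.66 and 10.9 for the first and 11.1 and 8.82 for the second.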

How the data were processed

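Per the file headers, the authors called peaks with MACS 2.1.1.20160309 on each sample apart, without a control, in single-end mode, with tags extended to 147 bp, at most 1 tag per position and a q cut-off of 0.01. The submitters' processing notes name Bowtie2 2.2.1 and Zv9. Both input alignments are called paired by name, unlike the mode used, and bear day tags that differ between replicates. The sources used here do not say what either means. Replicates 1 and 2 kept 5123112 and 5586367 tags. The deposited values are pileup (a coverage signal not scaled to depth), fold enrichment (a ratio to local density), −log10 p and q, and length. Extension without a shift limits summit precision, and 1 tag per position caps pileup where tags are dense.

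Python 3.11.15, numpy 2.4.6, scipy 1.17.1 and pandas 2.3.3 were used. End and interior peaks were compared inside each table by an exact two-sided sign test over chromosomes, leaving out ties and chromosomes without a value on one side. The p-values measure spread between chromosomes of 1 library, not between embryos. The tests of peaks per Mb and of pileup were checked on simulated lists with peaks placed independently, unlike the clustered peaks here. Tags in 10 kb came out whole within 0.01, or at the sample mean, for 379 of 380 and 1095 of 1096 peaks. Peaks named are the 12 best ranked shared end peaks, the 4 best unshared and 5 nearest to an end of each table, those at the limit, and 8 joined regions. Others were chosen after their values were seen. Members, measures and tests were chosen with earlier results of these data known. No Zv9 genome was used here, so no gene or sequence is given, and distances from far ends are from the last peak.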

Additional observations from a re-analysis of the deposited data

How the results depend on the processing

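Across 98 recomputed values for the 4 measures, 74 kept their direction and side of the threshold, and 1 came to 0 (pileup in replicate 2, low density). For the density ratio, merging within 100 kb gave 1.69 in replicate 2 (1.49 without the last peaks), and surroundings under 4 times the mean density gave 1.81 (1.64 without the last peaks), all now past the test. At starts alone, the low-density ratio in replicate 2 was 1.45 and did not pass (exact sign test, adjusted p = 0.431). In replicate 1 the low-density ratio over both ends was 2.07 and did not pass (exact sign test, adjusted p = 0.173). The merged ratios join the clustering of peaks with their number. The limit on density selects on a measure already seen to differ between ends and interior, so its ratio is no separate result. Leaving out the last peaks gave 0.982 in replicate 1, reversed. The mean ratio over replicates ran from 1.08 to 1.31 when each replicate was left out. For pileup, lists of equal length gave -15 tags in replicate 2 (-4 as reported). Far ends alone, with the last peaks kept, gave differences of -13 and -5 tags, past the test. Tag density in place of pileup gave -4.60 and -1.18 times the mean, past the test. Fold enrichment in place of pileup gave 1.55 and 0.694, and low density 2 tags in replicate 1, all reversed. For length, windows of 2 Mb gave 28.5 bp in replicate 1 (4.5 as reported), and the sign reversed with windows of 10 Mb (-15 bp) and merging within 1 kb (-2.5 bp) in replicate 1, and with windows of 2 Mb (2 bp), lists of equal length (8 bp) and low density (2 bp) in replicate 2. For sharing, it reversed with lists of equal length (7.89 and 1.51 percentage points), low density (3.56 and 0.159), and, in replicate 1, starts only (1.97) and a reciprocal overlap of 50% (0.987). The cause of these changes was not tested. A stricter q and leaving out chromosome 4 changed no direction or call. No paired analysis was possible because all samples form 1 group. The lowest pileups at end peaks were 11 and 8 tags, and the effect of depth on weak sites was not tested.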

Other observations

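The distance from a chromosome start to its first peak varied widely between chromosomes. Over 25 chromosomes its median was 2528 kb in replicate 1 (quartiles 656 and 4776 kb) and 645 kb in replicate 2 (quartiles 106 and 2282 kb). The first peak lay within 100 kb of the start on 4 chromosomes in replicate 1 and on 6 in replicate 2. The longest distance from a start to the first peak was 36564 kb in replicate 1, on chromosome 17, and 9489 kb in replicate 2, on chromosome 22. Replicate 2 has more peaks in all, and the part of list length in these distances was not tested.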
